A study of Mus musculus with 25 samples.

Results

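L1Md is the youngest group of mouse LINE-1 (L1) retrotransposons, and its RNA was read here in two-cell embryos made by *in vitro* fertilization (IVF) or by somatic cell nuclear transfer (SCNT). Members were all repeat entries of the deposited count table that are classed as L1 and whose name begins with L1Md. There were 190410 such copies among 1755056 annotated repeat copies, and the 157556 copies on autosomes, in 25 subfamilies, were kept for the analysis. RNA came from pools of 5 to 10 embryos collected 28 to 29 h after insemination or activation, with 1 library per pool, 25 libraries and 11 groups.

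IVF embryos (4 libraries) came from C57BL/6N oocytes, whose donors were 4 to 20 weeks old per the labels (the study's methods give a narrower range), and DBA/2 sperm. All SCNT embryos were made from enucleated oocytes and cumulus cell nuclei of adult BDF1 females, so the strain of the oocyte and the way the embryo was made cannot be told apart in any comparison with IVF. Control SCNT embryos were prepared in cytochalasin B (2 libraries). SCNT-*Kdm3a* and SCNT-*Kdm4d* embryos (2 each) were prepared in the same way and received 10 pL of mouse *Kdm3a* or *Kdm4d* mRNA at 1500 ng/μL, which encode histone H3 lysine 9 (H3K9) demethylases. The remaining SCNT embryos were prepared in latrunculin A (LatA). They were left without further treatment (LatA control, 2 libraries), or received the histone deacetylase inhibitor trichostatin A (TSA) at 25 nM for 8 h (2), an inhibitor of the H3K9 methyltransferase G9a at 1 μM for 24 h (A366, 2 libraries; RK-701, labelled R701, 3 libraries), or TSA together with A366, RK-701 or UNC0638 (2 each). All embryos were labelled wild type, and UNC0638 without TSA was not analysed here.

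L1 elements copy themselves through an RNA that serves both as messenger for their proteins and as template for reverse transcription. A full-length L1 carries an internal promoter in its 5′ region, whereas most genomic copies are cut short at that end and depend on neighbouring promoters for any transcript. The A, Tf and Gf subfamilies include elements that are still active in the mouse, the F, Fanc, Mus, N and V subfamilies are older, and transcription of L1 is a known feature of the mouse two-cell stage. H3K9 methylation and DNA methylation are the best known marks that silence these elements.

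No genome of the build of the files was at hand, so the sequence of a copy could be shown only where a RefSeq promoter window (GRCm38.p6) falls on a copy with enough reads to be tested. That was the case for the windows of Gm36789 and Gm33025, both uncharacterised loci on the plus strand of chromosome 14, and both copies are on the minus strand. They are printed 5′ to 3′ on the gene's strand, with bases inside the L1Md copy in capitals, to show how an annotated promoter window can fall on a member.
Gm36789, chr14:57000913-57001212: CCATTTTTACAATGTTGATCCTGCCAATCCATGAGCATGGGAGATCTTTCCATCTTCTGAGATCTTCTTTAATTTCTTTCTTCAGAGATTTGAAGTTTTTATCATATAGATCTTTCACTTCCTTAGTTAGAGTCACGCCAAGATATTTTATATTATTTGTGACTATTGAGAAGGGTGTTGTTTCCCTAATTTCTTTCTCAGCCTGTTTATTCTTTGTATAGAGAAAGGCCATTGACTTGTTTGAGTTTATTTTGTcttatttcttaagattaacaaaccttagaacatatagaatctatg
Gm33025, chr14:86794394-86794693: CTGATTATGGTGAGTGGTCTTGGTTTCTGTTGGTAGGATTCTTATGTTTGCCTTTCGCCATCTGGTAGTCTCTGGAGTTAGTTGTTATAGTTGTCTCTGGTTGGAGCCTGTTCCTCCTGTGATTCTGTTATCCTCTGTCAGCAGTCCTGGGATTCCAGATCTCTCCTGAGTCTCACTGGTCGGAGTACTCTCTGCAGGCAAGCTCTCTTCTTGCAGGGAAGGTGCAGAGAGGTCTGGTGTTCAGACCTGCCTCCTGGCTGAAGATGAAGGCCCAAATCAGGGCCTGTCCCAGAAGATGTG
Of the first window, 255 of 300 bases lay in an L1MdGf_II copy of 2308 bases, and its GC content was 32.0%. All 300 bases of the second lay in an L1MdFanc_I copy of 1021 bases, and its GC content was 50.7%. The L1MdGf_II copy held 11, 18, 19 and 19 reads in the IVF libraries and 18 and 19 reads in the control SCNT libraries. The L1MdFanc_I copy held 6, 10, 5 and 4 reads in IVF and 10 and 26 in control SCNT. Neither copy passed the test between these groups (edgeR adjusted p = 0.822 and 0.256).

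Libraries held 6662727 to 21188688 reads on genes. A level is given below in CPM, here counts scaled to 1000000 gene reads after correction by TMM factors, which ranged from 0.883 to 1.16. Summed levels of 5 two-cell markers (Zscan4c, Zscan4d, Zfp352, Tdpoz4 and Usp17lc) were 173 to 1060 per library, and those of 12 cumulus cell markers were 6.01 to 21.6, with 4 of the 12 (Amh, Foxl2, Fshr and Lum) at or under 1 in every library. The two-cell sum was 578 to 741 in IVF, 535 to 641 in control SCNT and 249 to 433 in the LatA control, and the cumulus sum was 13.1 to 21.4, 10.4 to 19.2 and 11.5 to 15.6. The two-cell markers did not move together between IVF and control SCNT. Zscan4d was at 157.3 to 203.8 in IVF and at 7.2 and 9.2 in control SCNT. Zscan4c (33.6 to 63.2, and 4.7 and 3.1) and Tdpoz4 (48.2 to 69.2, and 21.1 and 37.3) were also lower. Zfp352 (271.7 to 337.9, and 394.1 and 499.6) and Usp17lc (59.3 to 83.6, and 107.9 and 91.5) were higher. The summed level of 6 oocyte-stored genes was 1380 to 1750 in IVF, 986 to 1170 in all untreated SCNT libraries and 1860 to 2330 with RK-701. Among the other treated groups, the two-cell sum was 876 to 1060 in SCNT-*Kdm3a* and 971 to 1020 with TSA and UNC0638, above every other group, and the oocyte-stored sum was lowest with TSA and RK-701 (702 to 851). The oocyte-stored sum included Bmp15, which is not on an autosome. Bmp15 was at 287.6 to 482.1 in IVF, 445.4 to 691.6 in untreated SCNT and 374.5 and 269.1 with TSA and RK-701. The other members were all lower in untreated SCNT than in IVF. With TSA and RK-701, Zp3 was higher than in the LatA control (80.71 and 93.55 against 46.12 and 43.2). Gdf9 and Oosp1 were lower with both agents, and Nlrp5 and Zar1 overlapped. The part of these sums in the results below was not tested. In pools of embryos, fewer cells of one kind and less RNA per cell cannot be told apart.

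Between 19095 and 131649 reads per library fell on autosomal L1Md copies. Reads were found in at least 1 library on 72519 copies, 46.0% of the members, and in a single library on 4538 to 15869 copies. Long copies were more often read. Of 11914 copies of 5000 bases or more, 93.0% had a read, against 34.4% of 113918 copies under 1000 bases. The long copies made up 35.3% of L1Md bases but held 19.6% of L1Md reads, and the short ones made up 30.5% of bases and held 41.2% of reads. Because only uniquely placed read pairs were counted, reads within near-identical copies are missing, and the files do not show how many. Copies inside gene spans made up 26.7% of bases and held 35.5% of reads. Counting did not use strand, so L1 transcripts and unspliced RNA of a host gene cannot be told apart there.

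Per megabase of annotated copies, L1MdV_III had the highest mean level over the 25 libraries (60.9 CPM per megabase), followed by L1MdTf_I (53.8), L1MdFanc_II (37.8), L1MdV_II (37.7) and L1MdMus_II (36.6). The order of the first pair depended on the group. The mean level per megabase of L1MdTf_I was above that of L1MdV_III in the LatA control (86.6 and 75.6), TSA (150.8 and 78.5), A366 (98.4 and 86.5) and TSA with A366 (49.7 and 48.6), and it was far below under RK-701 (8.77 and 50.8). The lowest were L1MdA_I (5.93) and L1MdA_II (6.07), whose copies are long: 29.6% and 25.3% of them reached 5000 bases, against 0.628% of L1MdV_III copies. L1MdFanc_II and L1MdV_II differed by less than the spread between libraries. The position of L1MdTf_I rested on 1 copy, which held 63.4% of the reads of its subfamily. The corresponding top copy held 42.1% in L1MdTf_II and 41.5% in L1MdTf_III, but 5.04% in L1MdV_III and 2.93% in L1MdV_I.

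**L1Md RNA was higher in control SCNT embryos than in IVF embryos.** The summed L1Md level in the 4 IVF libraries was 2981, 3679, 3956 and 3359. It was 6297 and 6373 in control SCNT, and 4014 and 8492 in LatA control SCNT. All 4 untreated SCNT libraries lay above the highest IVF library, although 1 LatA control library did so only narrowly. Pooling both controls, L1Md was 1.75-fold higher than in IVF, a log2 difference of 0.81 (SD 0.45 in untreated SCNT and 0.18 in IVF, n = 4 and 4, p = 0.0286 in a two-sided exact permutation test, the smallest p this design allows, and 0.114 after Benjamini-Hochberg adjustment over 4 comparisons). With either control alone (2 libraries), the exact permutation test could not go below p = 0.133, and the log2 difference was 0.87 for control SCNT and 0.75 for the LatA control.

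Older L1 copies, 252427 on autosomes in 118 other subfamilies, were also higher in untreated SCNT. Their summed level was 7354 to 8511 in IVF, 12380 and 11650 in control SCNT, and 8986 and 12260 in the LatA control. The ratio of L1Md to older L1 reads within a library, which needs no scaling, was 0.405, 0.433, 0.465 and 0.415 in IVF, 0.509 and 0.547 in control SCNT, and 0.447 and 0.693 in the LatA control. Of the 4 untreated SCNT libraries, 3 lay above all IVF libraries. The log2 difference in this ratio was 0.34 and did not pass (exact permutation test p = 0.0571, adjusted p = 0.114). The level of all repeats moved with these values, from 105450 to 123530 in IVF to 144800 and 137000 in control SCNT and 114730 and 151500 in the LatA control, and its part in the result was not tested.

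**Figure D1:**
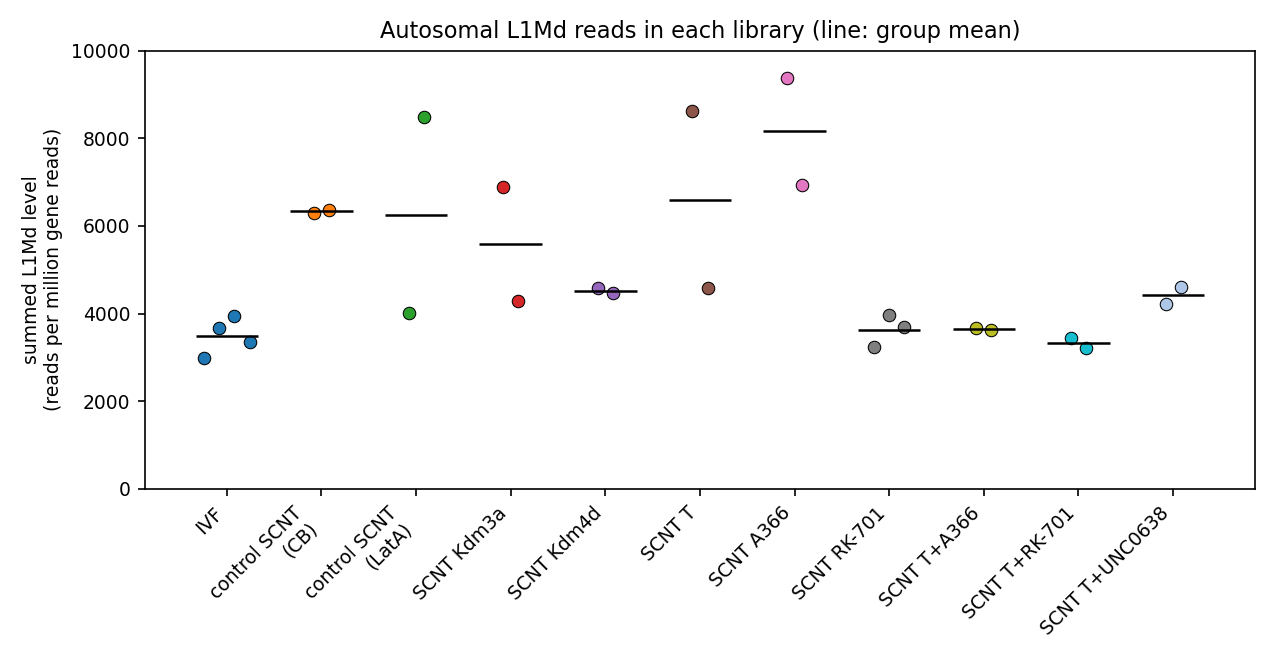
Summed level of autosomal L1Md copies (CPM of gene reads, y axis) in each of the 25 libraries (points) by group (x axis), with the mean of each group as a line. IVF libraries sit between 2981 and 3956, and the LatA control, TSA and SCNT-*Kdm3a* groups each hold 1 high and 1 low library.

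**Figure D2:**
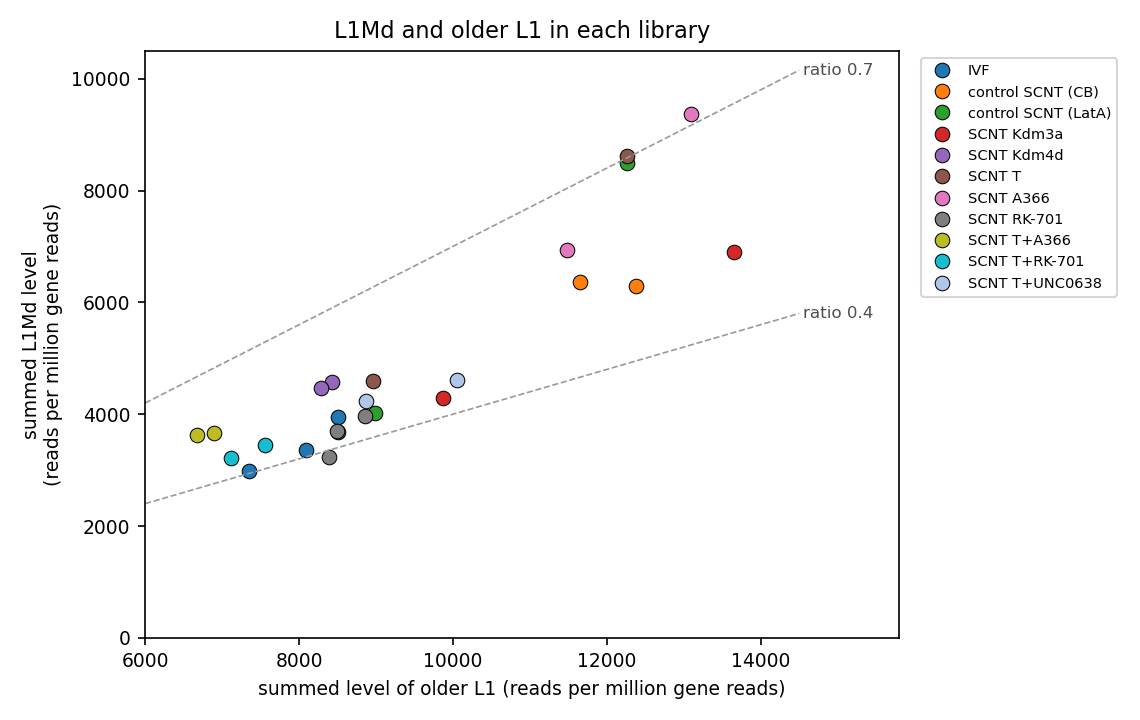
Summed L1Md level (y axis) against the summed level of older L1 (x axis, which does not start at 0), both in CPM of gene reads, for each library coloured by group, with dashed lines where L1Md equals 0.4 and 0.7 of older L1. The libraries with the most L1Md also had high levels of older L1, and the ratio ranged from 0.385 in an RK-701 library to 0.716 in an A366 library.

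Each subfamily was then tested with edgeR's quasi-likelihood test over all 669 repeat names that held at least 10 reads per library on average. All 25 L1Md subfamilies were tested, and all p-values below are adjusted over the 669 names. In control SCNT against IVF, 17 of 25 were higher and 0 were lower, where 43.9% of all repeat names passed in either direction and 37.5% passed as higher. The median log2 fold change was 0.93 for L1Md (all 25 positive, range 0.13 to 1.67), 0.71 for the 84 older L1 names tested and 0.44 for all repeat names. When libraries were scaled so that the median of all repeat names stayed near 0 (0.01), 11 subfamilies were still higher and 0 lower, with an L1Md median of 0.50.

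L1MdA_V had the largest increase. Its level was 20.5, 29.4, 29.3 and 21.4 in IVF and 70.1 and 90.7 in control SCNT (log2 fold change 1.67 ± 0.25 SE, edgeR adjusted p = 4.35e-05). Both control SCNT libraries were far above all IVF libraries. L1MdA_VII was at 91.8, 123.7, 126.1 and 101.1 in IVF and at 276.7 and 263.1 in control SCNT, again without overlap (1.28 ± 0.22, edgeR adjusted p = 9.91e-05). L1MdFanc_I rose from 171.6, 201.2, 203.6 and 210.1 to 412.0 and 408.9 (1.06 ± 0.17, edgeR adjusted p = 6.57e-05). L1MdV_III, the subfamily with the highest level per megabase, rose from 329.7, 354.8, 321.2 and 316.4 to 685.9 and 630.7 (0.99 ± 0.18, edgeR adjusted p = 0.000144).

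By clade, 5 of 7 L1MdA, 3 of 5 L1MdF, 2 of 2 L1MdFanc, 2 of 2 L1MdMus, 3 of 3 L1MdV, 1 of 2 L1MdGf and 1 of 3 L1MdTf subfamilies passed in control SCNT, and the single L1MdN subfamily did not. Of all repeat names, 37.5% passed as higher. The clade sums did not overlap between IVF and control SCNT for L1MdA (585.5 to 732.3 and 1120 to 1226), L1MdF (816.1 to 1061 and 1633 to 1693), L1MdFanc (379.6 to 478.9 and 857.6 to 894.5), L1MdMus (228.1 to 279.0 and 467.2 to 528.6), L1MdGf (105.6 to 142.8 and 216.2 to 231.2) and L1MdV (548.3 to 645.5 and 1098 to 1183). They overlapped for L1MdTf (288.4 to 638.3 and 566.6 to 902.4) and for L1MdN (16.4 to 26.4 and 25.9 to 27.7). The sums of older L1 (7354 to 8511 and 11650 to 12380) and of all repeats (105450 to 123530 and 137000 to 144800) did not overlap either. A lack of overlap was thus not particular to these clades. L1MdTf_I, one of the youngest subfamilies, was at 94.8, 331.6, 384.9 and 104.5 in IVF and 78.7 and 422.7 in control SCNT, and it did not pass (0.13 ± 0.64, edgeR adjusted p = 0.886).

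The sum over copies of 5000 bases or more, the class that can hold a complete element, was 654.0, 749.3, 784.4 and 676.9 in IVF and 1574 and 1442 in control SCNT. Copies under 1000 bases were at 1120, 1571, 1676 and 1254 in IVF and 2094 and 2398 in control SCNT. Copies outside gene spans were at 1965, 2627, 2695 and 2167 in IVF and 3978 and 4138 in control SCNT. In each of these classes the 2 control SCNT libraries were above all IVF libraries.

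In the LatA control against IVF, 15 of 25 subfamilies were higher and 0 lower (36% of all repeat names passed in either direction, 27.4% as higher), with a median log2 fold change of 0.72 for L1Md, 0.47 for older L1 and 0.33 for all repeat names. With the repeat-based scaling 9 were higher and 0 lower, and the L1Md median was 0.40. This result rested on 1 library. Without LatA control replicate 2 no L1Md subfamily passed, and without replicate 1, 20 passed. For control SCNT the count stayed between 12 and 17 when any 1 library was left out. L1MdA_V, for example, was at 40.3 and 78.8 in the LatA control, both above the IVF range, whereas L1MdF_V was at 264.9 and 1047, below and above the IVF values of 271.7 to 306.2.

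**Figure D3:**
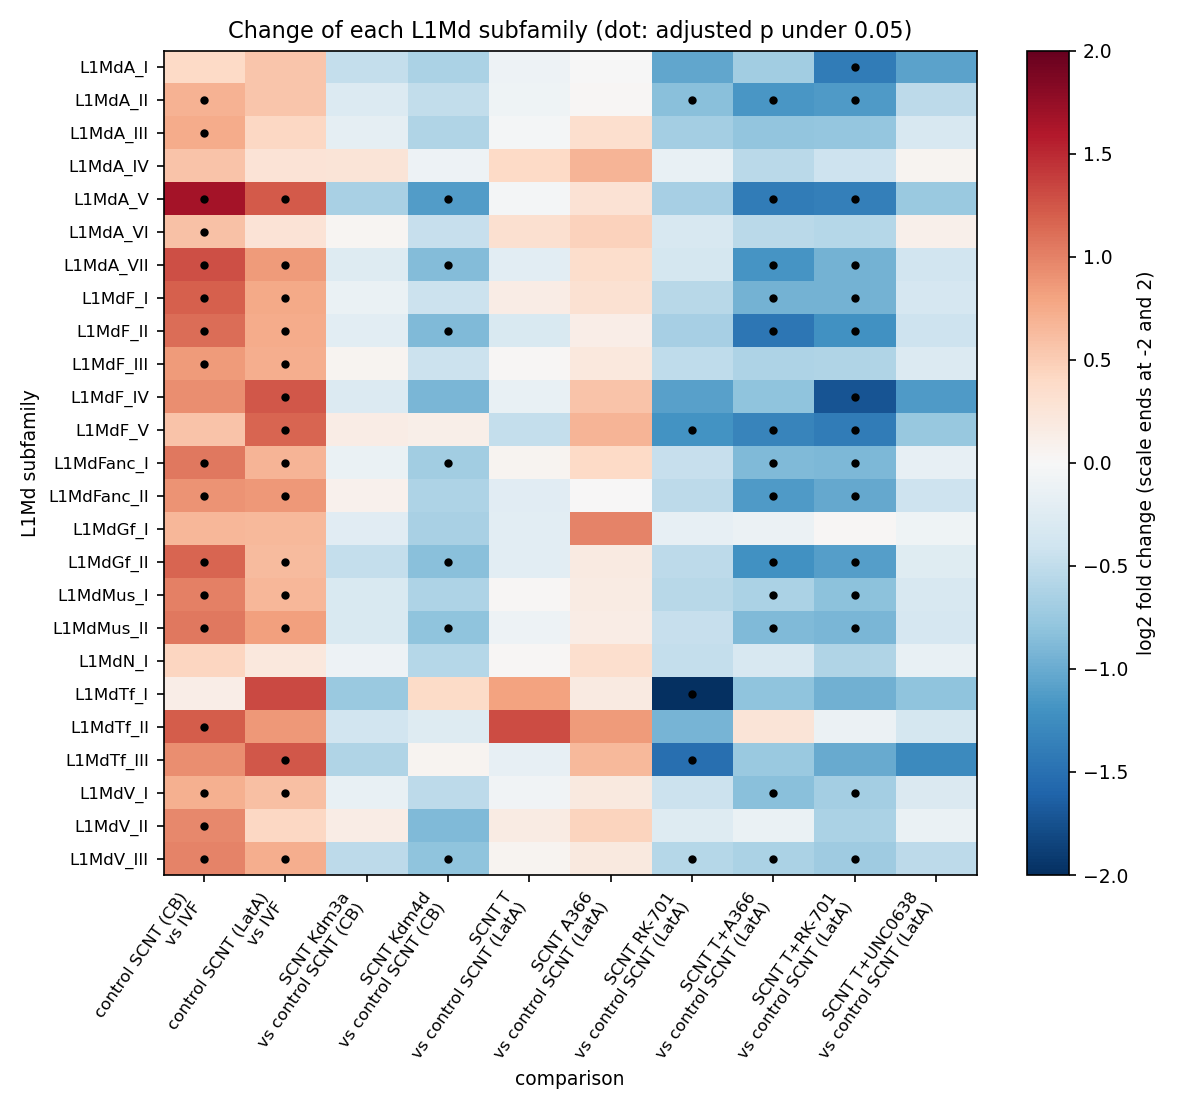
Log2 fold change (colour, with the scale ending at -2 and 2) of the 25 L1Md subfamilies (rows) in 10 comparisons (columns), with a dot where the edgeR adjusted p was under 0.05. The 2 columns against IVF are positive throughout, with 17 and 15 dots, and L1MdTf_I in RK-701 (-3.30) lies beyond the colour scale.

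***Kdm4d* mRNA and L1Md.** The summed L1Md level was 4577 and 4465 in SCNT-*Kdm4d* embryos, below both control SCNT libraries (6297 and 6373) and above all IVF libraries. It was 6898 and 4290 in SCNT-*Kdm3a* embryos, 1 library above and 1 below the control SCNT libraries. Taking the demethylase groups together against both untreated controls, the log2 difference was -0.29 (n = 4 and 4, exact permutation test p = 0.371, adjusted p = 0.371).

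In SCNT-*Kdm4d* against control SCNT, 7 of 25 subfamilies were lower and 0 higher, namely L1MdA_V, L1MdA_VII, L1MdF_II, L1MdFanc_I, L1MdGf_II, L1MdMus_II and L1MdV_III (17.5% of all repeat names passed in either direction, 16.1% as lower). The median log2 fold change was -0.61 for L1Md, -0.68 for older L1 and -0.40 for all repeat names. With the repeat-based scaling, 0 subfamilies passed in either direction and the L1Md median was -0.22. L1MdA_V was at 41.5 and 32.7 in SCNT-*Kdm4d* embryos (-1.12 ± 0.30 against control SCNT, edgeR adjusted p = 0.0192) and L1MdV_III at 369.9 and 387.6 (-0.80 ± 0.21, edgeR adjusted p = 0.0177). In both, the SCNT-*Kdm4d* libraries lay between the IVF and control SCNT ranges. Leaving out any 1 of the 4 libraries reduced the 7 calls to 0 or 1.

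In SCNT-*Kdm3a* against control SCNT, 0 of 25 subfamilies passed with edgeR and 0 with DESeq2, 2 had an unadjusted p under 0.05, and the median log2 fold change was -0.23 (5.68% of all repeat names passed). Against IVF, 15 subfamilies were higher in SCNT-*Kdm3a* embryos (33.2% of repeat names passed, 30.9% as higher) and 1, L1MdF_I, in SCNT-*Kdm4d* embryos (9.72%, 4.63% as higher). With the repeat-based scaling these counts were 6 and 2. L1MdF_I was at 129.0 and 163.0 in SCNT-*Kdm4d* and at 76.7 to 90.4 in IVF (0.77 ± 0.20, edgeR adjusted p = 0.0191), and this call was lost without SCNT-*Kdm4d* replicate 2. The 15 calls in SCNT-*Kdm3a* fell to 0 without its replicate 1, the library with the higher L1Md level. 

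**TSA and G9a inhibitors.** With 1 agent, the summed L1Md level was 8615 and 4594 under TSA, 9376 and 6943 under A366, and 3234, 3960 and 3691 under RK-701. With TSA and an inhibitor together, it was 3665 and 3631 with A366, 3442 and 3217 with RK-701, and 4229 and 4614 with UNC0638. The RK-701 libraries and the libraries that received TSA with A366 or RK-701 thus all lay in or next to the IVF range of 2981 to 3956, and both A366 libraries lay above it. Libraries treated with both agents (n = 6) and with 1 agent (n = 7) differed by -0.50 on the log2 scale, with overlapping values (exact permutation test p = 0.0967, adjusted p = 0.193). Libraries treated with both agents differed from IVF by 0.12 (n = 6 and 4, exact permutation test p = 0.343, adjusted p = 0.371). The ratio of L1Md to older L1 in these libraries was 0.452 to 0.544, and 0.405 to 0.465 in IVF (log2 difference 0.18, exact permutation test p = 0.0381, adjusted p = 0.114), with 3 of 6 above all IVF libraries.

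Against the LatA control, 15 of 25 subfamilies were lower with TSA and RK-701 (29.1% of all repeat names passed, 26.2% as lower), 13 with TSA and A366 (31.7%, 29.3% as lower), and 5 with RK-701 alone (13.9%, 12.9% as lower). None was higher in these 3 comparisons. The median log2 fold changes were -0.92, -0.80 and -0.55 for L1Md, -0.62, -0.68 and -0.32 for older L1, and -0.40, -0.48 and -0.28 for all repeat names. With the repeat-based scaling, 9, 7 and 2 subfamilies were lower, with L1Md medians of -0.51, -0.31 and -0.28. The oocyte-stored sum was 702 to 851 with TSA and RK-701, 898 to 1110 with TSA and A366 and 1860 to 2330 with RK-701 alone, against 986 to 1170 in the LatA control, and its part in these differences was not tested. Its non-autosomal member Bmp15 was at 374.5 and 269.1, 424.6 and 350.9, and 970.3 to 1245 in these groups. In the LatA control Bmp15 was at 672.3 and 593.3. For TSA alone, A366 alone, and TSA with UNC0638, edgeR called 0 of 25 subfamilies, with 1, 2 and 5 at an unadjusted p under 0.05, and 0, 0 and 2 by DESeq2 (0.598%, 0.897% and 15.7% of repeat names passed edgeR).

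Every one of these comparisons shares the 2 LatA control libraries, whose L1Md levels were 4014 and 8492. Without LatA control replicate 2, the counts were 0 for TSA and RK-701, 3 for TSA and A366, and 0 for RK-701. Without replicate 1 they were 19, 20 and 18. When only the compared libraries were fitted, with no estimate of the spread from other groups, the counts were 0, 0 and 1. With TSA and A366, L1MdF_II was at 47.1 and 76.8 in the LatA control and at 20.1 and 25.4 with both agents, with no overlap (-1.44 ± 0.30, edgeR adjusted p = 0.00227). L1MdFanc_I also did not overlap, at 259.8 and 371.9 in the control and 169.4 and 172.4 with both agents (-0.89 ± 0.20, edgeR adjusted p = 0.0033). L1MdF_IV, with the largest decrease under TSA and RK-701, was at 254.4 and 921.6 in the control and 189.4 and 166.5 with both agents (-1.72 ± 0.50, edgeR adjusted p = 0.0149), where the control libraries were farther from each other than the lower of them was from the treated ones.

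**Figure D4:**
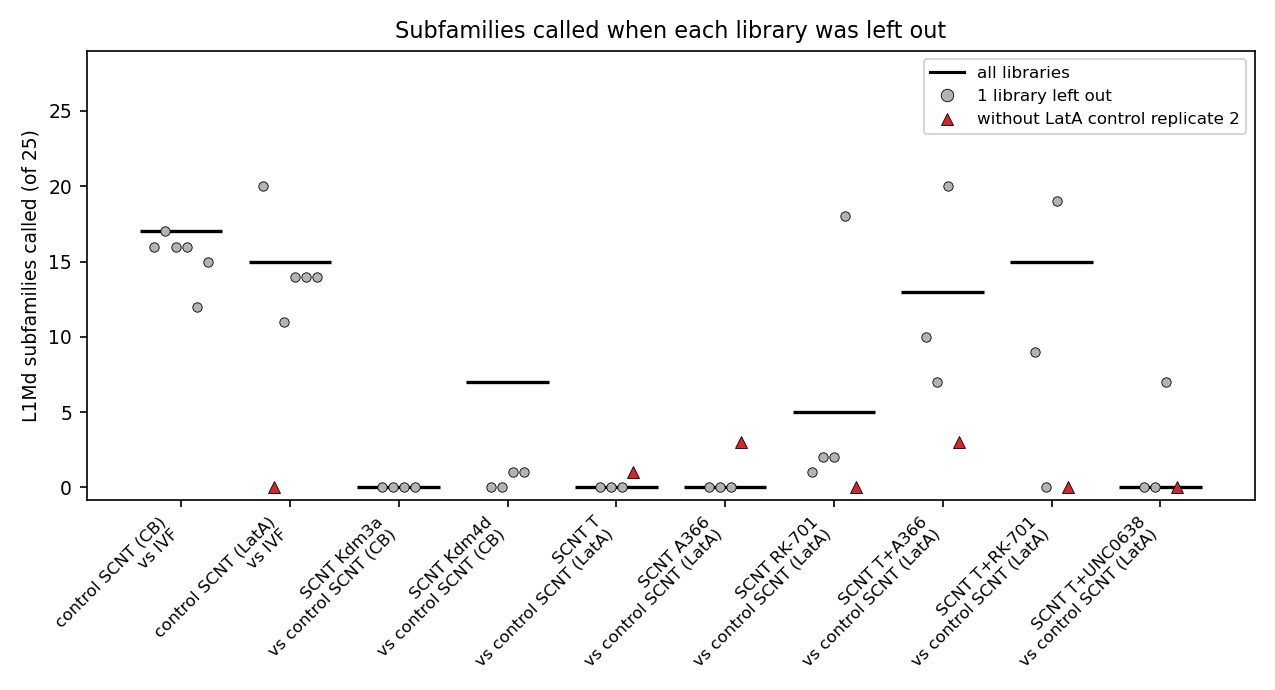
Number of the 25 L1Md subfamilies called in 10 comparisons (x axis) with all libraries (black lines) and with each library of the compared groups left out in turn (points). The triangles, without LatA control replicate 2, lie at 0 for the LatA control against IVF and for RK-701 with or without TSA, whereas control SCNT against IVF keeps 12 to 17 calls.

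Comparison with IVF does not use the LatA control. A366 embryos had 22 of 25 subfamilies higher than IVF and 0 lower (39% of repeat names passed, 32% as higher), with between 10 and 22 called when any 1 library was left out. L1MdFanc_I was at 454.4 and 374.1 under A366 (1.07 ± 0.17, edgeR adjusted p = 9.34e-05), and L1MdTf_III was at 525.9 and 630.7 against 114.9 to 204.9 in IVF (1.90 ± 0.44, edgeR adjusted p = 0.00227). TSA embryos had 15 higher (37.4%, 28.4% as higher), which fell to 0 without TSA replicate 1. RK-701 embryos had 1 lower and 0 higher (20.5%, 12.9% as lower), and the 3 groups that received TSA with an inhibitor had 0 in either direction with edgeR (13.6% for RK-701, 13.8% for A366 and 10.3% for UNC0638), with 3, 4 and 5 subfamilies at an unadjusted p under 0.05 and 1, 3 and 0 called by DESeq2. With the repeat-based scaling, the counts against IVF were 19 higher for A366 and 9 for TSA, and RK-701 had 4 higher and 1 lower (5 and 1 with gene totals not corrected by TMM). For TSA with RK-701, A366 and UNC0638, the median log2 fold changes against IVF were -0.17, -0.16 and 0.38.

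The subfamily that was lower than IVF under RK-701 was L1MdTf_I, at 49.0, 47.0 and 77.3 in the RK-701 libraries, 94.8 to 384.9 in IVF, and 351.9 and 788.6 in the LatA control. All 3 RK-701 libraries were below all libraries of both groups (-1.99 ± 0.61 against IVF, edgeR adjusted p = 0.024, and -3.30 ± 0.69 against the LatA control, edgeR adjusted p = 0.00357). The call against IVF was lost when the top copy of each subfamily was left out, and without IVF replicate 2 or 3 or RK-701 replicate 1 or 2.

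Whether TSA changed the response to a G9a inhibitor was tested as an interaction. For A366, 7 of 25 subfamilies had a negative interaction and 0 a positive one, and the median over the 25 was -1.18 on the log2 scale (-0.72 for older L1 and -0.49 for all repeat names, of which 8.67% passed in either direction and 8.22% as negative). For RK-701 the edgeR test called 0 subfamilies, 0 had an unadjusted p under 0.05, DESeq2 called 0, and the median was -0.27 (0% of repeat names passed). The A366 count ranged from 0 without LatA control replicate 1 to 21 without replicate 2, and was 2 with the repeat-based scaling.

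**Single copies.** Of the members, 1645 (1.04%) had at least 5 reads per library on average and were tested one by one among 46280 autosomal repeat copies, and they held 71.3% of all L1Md reads. In data simulated for the LatA control against IVF, with a dispersion common to all copies, 1.5% of 200 copies changed by 4-fold were recovered among the 46280. Only these 200 were changed, whereas 13.1% of all copies passed in the real comparison. The recovered share therefore does not measure the power of the real test. The 10 copies with the highest mean level held 16.2% of the reads, and 330 copies held 50% of them. Of the 1645 tested copies, 682 lay in the span of a GENCODE gene and 13 touched an exon. Of the 682, 310 (45.5%) were in the same orientation as the gene, 351 (51.5%) in the opposite one, and 21 in genes of both orientations.

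The highest mean level was that of an L1MdTf_I copy of 205 bases at chr3:11724228-11724432 (mm10, plus strand), 64718 bases from the nearest gene, the processed pseudogene Gm8919. It held 159, 4566, 5074 and 507 reads in IVF, 43 and 4183 in control SCNT, 5592 and 5202 in the LatA control, and 49, 16 and 378 under RK-701. Levels differed by more than 10-fold between libraries of 1 group in IVF, control SCNT, SCNT-*Kdm3a*, A366 and RK-701 (7527 and 165 reads under A366, 2811 and 71 in SCNT-*Kdm3a*). The copy passed the test in no comparison.

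Several abundant copies were read at high levels in some libraries and at or near 0 in others of the same group. An L1MdF_IV copy of 3056 bases at chr12:74029367-74032422, in an intron of Syt16 and opposite to it, held 1469 to 6249 reads in 7 libraries (2 IVF, 2 A366, and 1 each of the LatA control, TSA, and TSA with A366) and 0 to 2 reads in the other 18. Syt16 itself, which encodes a synaptotagmin, held 48 to 332 reads in these libraries. An L1MdF_V copy of 2922 bases at chr3:47358486-47361407 held 3148 to 11292 reads in 4 libraries and at most 18 in the other 21. An L1MdTf_I copy at chr17:70235642-70236634, in an intron of Dlgap1 in the same orientation, held 1344 to 10497 reads in 3 libraries and at most 44 elsewhere. Both of these copies passed as higher in the LatA control than in IVF (edgeR adjusted p = 0.00704 and 0.0119), although the control libraries held 7 and 6327 reads on the first and 0 and 1344 on the second. Over all tested L1Md copies, 16 had at least 100 reads in their highest library and at least 100 times the reads of their median library, and together they held 5.18% of all L1Md reads. LatA control replicate 2 was high in 5 of the 16, the A366 libraries in 5 and 6, and both libraries of TSA with UNC0638 in 0.

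**Figure D5:**
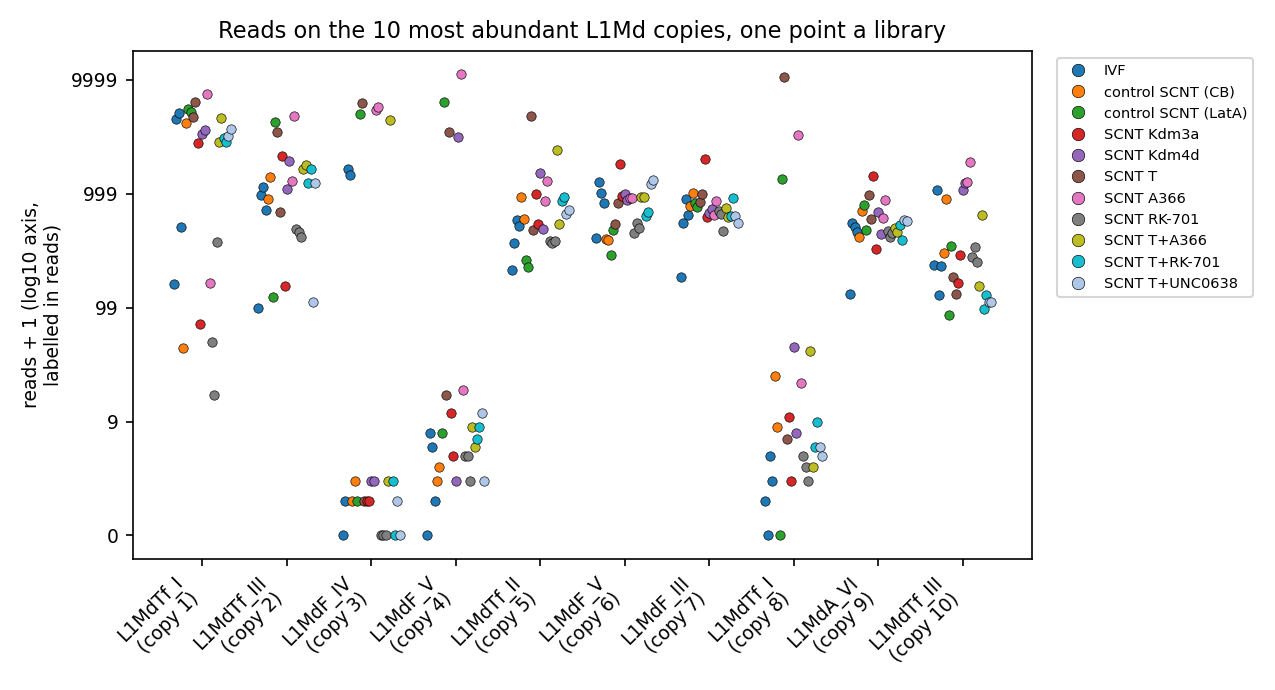
Reads in each library (points, coloured by group, log10 axis of reads + 1) for the 10 L1Md copies with the highest mean level (x axis, ordered by it). Copies 3, 4 and 8 are split into libraries with more than 1000 reads and libraries with at most 44, whereas copies 6, 7 and 9 vary over a narrower range in every group.

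Other copies among the top 10 were read in every library. An L1MdF_V copy of 511 bases at chr7:15055661-15056171 (plus strand) lay 28 bases from Obox3-ps4, a pseudogene on the minus strand of the Obox homeobox family, which is active around genome activation. This copy held 404 to 1273 reads in IVF, 400 and 389 in control SCNT, and 290 and 481 in the LatA control. Scaled for depth, its level was 57.5 to 79.1 CPM in IVF, 38.7 and 31.0 in control SCNT, and 15.8 and 44.8 in the LatA control. Obox3-ps4 held 424 to 727 reads in IVF, 120 and 196 in control SCNT, and 250 and 85 in the LatA control. An L1MdF_III copy of 5044 bases at chr3:58600503-58605546, 7370 bases from Selenot, held 184 to 907 reads in IVF and 472 to 2023 elsewhere. Its level was 28.7 to 58.9 CPM in IVF and 40.1 to 106 elsewhere. An L1MdA_VI copy of 5945 bases at chr13:49594184-49600128, in an intron of Cenpp and in its orientation, held 132 to 554 reads in IVF and 327 to 1426 elsewhere. Its level was 20.6 to 34.4 CPM in IVF and 27.5 to 83.2 elsewhere. Cenpp, a centromere protein gene, held 224 to 554 reads in IVF and 200 to 664 elsewhere.

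In control SCNT against IVF, 195 L1Md copies were higher and 43 lower, which is 14.5% of those tested, where 12.2% of all 46280 copies passed in either direction (a call required an edgeR adjusted p under 0.05 and a fold change over 2). The 195 copies came from 24 subfamilies and 19 chromosomes. Of them 83 lay in gene spans (42.6%, against 41.5% of all tested L1Md copies), and 45 were 5000 bases or longer (23.1%, against 19.8%). The host gene (GENCODE) was itself called higher for 14 of the 82 called copies whose host gene was tested (17.1%), against 11.6% of all tested copies whose host gene was called in the copy's direction. For the copies called lower, the host gene was itself called lower for 6 of 12 (50.0%). In the LatA control against IVF, 164 were higher and 41 lower (12.5%, with 13.1% of all copies). The first count ranged from 74 to 177 and the second from 51 to 213 when 1 library was left out, with the lowest values without control SCNT replicate 1 and LatA control replicate 2.

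Named below are called copies with at least 10 reads in every library of the higher group. The 3 such copies with the largest increases in control SCNT had no read in any of the 4 IVF libraries. An L1MdV_III copy at chr11:30252780-30255557, in an intron of the spectrin gene Sptbn1, held 90 and 41 reads in control SCNT, which is at least 22.6-fold higher than a floor of 3 reads per IVF library (edgeR adjusted p = 0.00419). In the LatA control it held 35 and 17 reads. An L1MdMus_II copy at chr10:7466087-7468010, in an intron of Ulbp1, held 35 and 44 reads in control SCNT (at least 13.0-fold, edgeR adjusted p = 0.00184). An L1MdV_III copy at chr9:9055366-9058155, in an intron of Arhgap42, held 12 and 47 (at least 9.26-fold, edgeR adjusted p = 0.00152). All 3 copies had the orientation of their host gene. In the LatA control, the 3 largest increases among such copies were those of copies of L1MdFanc_II (chr13:69648084-69654028, 30 and 58 reads), L1MdFanc_I (chr5:85969887-85974212, 50 and 21 reads) and L1MdA_III (chr11:90769396-90774353, 10 and 35 reads). All of them were outside genes and without a read in IVF.

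Among called copies with at least 10 reads in every IVF library, the largest decreases were shared by both comparisons with IVF. Both comparisons use the same IVF libraries. An L1MdMus_II copy at chr6:122918014-122918877, 2971 bases from Clec4a1, held 57, 65, 59 and 70 reads in IVF and 0 in all 4 untreated SCNT libraries (at least 20.5-fold lower in control SCNT, edgeR adjusted p = 0.0103). An L1MdMus_I copy at chr1:5481376-5484709 held 24, 29, 72 and 20 reads in IVF, 0 in the 4 untreated SCNT libraries, 110 and 42 in SCNT-*Kdm3a* and 35 and 38 in SCNT-*Kdm4d* embryos. It passed as lower in control SCNT than in IVF (edgeR adjusted p = 0.00305) and as higher than control SCNT with either mRNA (at least 17.7-fold with *Kdm3a*, edgeR adjusted p = 0.0119, and at least 10.4-fold with *Kdm4d*, edgeR adjusted p = 0.0417). Of the L1Md copies it was the 1 copy called higher with *Kdm4d*. An L1MdFanc_I copy at chr1:5357831-5361158 held 15, 47, 73 and 11 reads in IVF and 0 in all untreated SCNT libraries.

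In SCNT-*Kdm3a* against control SCNT, 8 copies were higher and 2 lower (0.608%, with 0.866% of all copies). An L1MdF_V copy at chr5:70580718-70582552 held 233 and 53 reads in SCNT-*Kdm3a*, 50 and 53 in SCNT-*Kdm4d*, 0 in all 4 untreated SCNT libraries and 11, 17, 34 and 51 in IVF (at least 31.6-fold higher with *Kdm3a*, edgeR adjusted p = 0.0192). An L1MdV_III copy at chr7:97367850-97369738 held 0 reads in SCNT-*Kdm3a* and 19 and 35 in control SCNT (at least 11.2-fold lower, edgeR adjusted p = 0.0422). In SCNT-*Kdm4d* against control SCNT, 1 copy was higher and 1 lower (0.257% of all copies passed). The lower one was an L1MdV_I copy at chr10:38860258-38862042, with 2 and 3 reads against 96 and 67 (log2 fold change -5.22 ± 0.96, edgeR adjusted p = 0.0214). This copy held 11, 29, 5 and 7 reads in IVF and 131 and 86 under A366. Leaving out 1 library reduced the 10 copies called with *Kdm3a* to between 1 and 6 (1 without control SCNT replicate 2 or SCNT-*Kdm3a* replicate 1), and the 2 called with *Kdm4d* to 0 without control SCNT replicate 2 and 1 without any other.

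Against the LatA control, 3 copies were lower and 0 higher with RK-701 (0.385% of all copies passed), 7 lower and 1 higher with TSA and RK-701 (0.536%), and 40 lower and 4 higher with TSA and A366 (1.2%). Without LatA control replicate 1 these totals were 59, 18 and 47, and without replicate 2 they were 0, 2 and 16. Leaving out a treated library gave 0 or 1 copies with RK-701 and with TSA and RK-701, and 1 or 3 with TSA and A366. The direction was not the same under every treatment. With TSA and UNC0638, 9 copies were higher and 5 lower, with A366 alone 3 were higher and 0 lower, and with TSA alone 0 passed. The share of all copies that passed is not given for these groups. The 3 copies lower with RK-701 included an L1MdTf_II copy at chr3:67792545-67793541 that was read in every library. It held 117, 119 and 111 reads with RK-701, 296 and 485 in the LatA control, 277 and 373 in control SCNT and 47, 193, 121 and 89 in IVF (-1.78 ± 0.36, edgeR adjusted p = 0.0329). The copy that was higher with TSA and RK-701 was an L1MdA_III copy of 6261 bases at chr6:43905568-43911828. It held 159, 355, 419 and 293 reads in IVF, 7 and 37 in control SCNT, 12 and 0 in the LatA control, 289 and 193 in SCNT-*Kdm3a*, 104 and 127 in SCNT-*Kdm4d*, 44 and 60 with TSA and RK-701, and 179 and 118 with TSA and UNC0638 (3.33 ± 0.72 for TSA and RK-701 against the LatA control, edgeR adjusted p = 0.037). The same copy passed as lower in control SCNT than in IVF (-3.68 ± 0.64, edgeR adjusted p = 0.00125), as higher with *Kdm3a* mRNA than in control SCNT (3.10 ± 0.66, edgeR adjusted p = 0.026) and as higher with TSA and UNC0638 than in the LatA control (4.91 ± 0.75, edgeR adjusted p = 0.00356). Its reads in the 4 untreated SCNT libraries, 0 to 37, lay below those of all IVF libraries. An L1MdF_IV copy at chr13:40809559-40813943 held 58 and 35 reads in the LatA control and 0 with TSA and RK-701 (at least 14.5-fold lower, edgeR adjusted p = 0.0334).

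**Genes that act on L1.** The 45 listed genes covered H3K9 methylation, DNA methylation (with Tet1, Tet2 and Tet3), germline defence, cytoplasmic restriction, promoter binding and L1 RNA partners. The list was not limited to genes that silence L1. Of the 45, 42 were on autosomes and had enough reads to be tested. In control SCNT against IVF, 1 was higher and 8 lower (15% of the 25794 genes tested passed in either direction), and in the LatA control 1 was higher and 6 lower (15.3%). The median log2 fold changes over the 42 genes were -0.31 and -0.21, with medians of 0.01 and 0.04 over all genes. Ehmt2, which encodes G9a, was the gene that was higher, at 10.2, 9.3, 9.7 and 11.4 in IVF and 29.4 and 33.5 in control SCNT (1.63 ± 0.21) and 30.8 and 30.4 in the LatA control. All untreated SCNT libraries were above all IVF libraries.

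Among the piRNA and germline defence genes, Ddx4, which encodes an RNA helicase of the germline, was at 129.9 to 163.8 in IVF and at 8.4 to 12.5 in the 4 untreated SCNT libraries. Mael was at 75.3 to 114.1 in IVF and 17.4 to 22.4 in untreated SCNT, and Mov10l1 at 25.8 to 38.6 and 0.2 to 3.8. All 3 passed in both comparisons. All 3 are genes that the oocyte can supply as stored RNA, and whether this bears on the difference was not tested. In the other classes, the heterochromatin protein gene Cbx1, the RNA methyltransferase gene Mettl3 and the restriction factor gene Samhd1 were lower in control SCNT, Ythdc1, which encodes a reader of methylated RNA, was lower in the LatA control, and Sp1 and Runx3, transcription factors that can bind L1 promoters, were lower in both. Sp1 was at 259.7 to 270.0 in IVF, 93.7 to 145.1 in untreated SCNT, 245.6 to 285.4 with *Kdm3a* or *Kdm4d* mRNA, and 252.4 to 319.7 with TSA and an inhibitor, without overlap between untreated SCNT and any of these. Setdb1, Trim28 and Dnmt1 did not pass in either comparison at the fold required. Dux, an activator of two-cell genes, was at 0.31 or less in every library.

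With *Kdm3a* mRNA, 1 of the 42 genes was higher (Sp1) and 2 lower (Dnmt3b and Tdrd1) than in control SCNT (4.17% of genes passed), and with *Kdm4d* mRNA 2 were higher (Sp1 and Pphln1, a HUSH complex member) and 1 lower (Mov10l1; 3.14%). With TSA and RK-701, 2 were higher than in the LatA control (Sp1 and Pphln1) and 1 lower (Dnmt3b, a *de novo* DNA methyltransferase; 6.17%). With RK-701 alone, edgeR called 0 of the 42 genes (3.35% of genes passed) and DESeq2 called 0, and 11 had an unadjusted p under 0.05. Dnmt3b was at 5.4 and 7.9 with TSA and RK-701 and at 15.9 and 16.6 in the LatA control.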

How the data were processed

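RNA of pooled two-cell embryos was made into SMART-Seq HT libraries. Per the labels and the study's methods, the authors trimmed reads with Trimmomatic, aligned them uniquely to mm10 with STAR, and counted them with featureCounts (1.6.2) over genes and repeat copies without strand. The deposited values are raw counts, and they were used as deposited. All counts of a repeat name were summed over its autosomal copies, because IVF embryos are of both sexes and SCNT embryos are female. Libraries held 6662727 to 21188688 gene reads, which together with TMM factors of the genes gave the library sizes. edgeR's quasi-likelihood test (edgeR 4.0.16, R 4.3.3) was fitted on all 25 libraries in 11 groups, for repeat names with a mean of at least 10 reads, copies with at least 5 and genes with at least 1, with Benjamini-Hochberg adjustment within each table. A repeat name was called at an adjusted p under 0.05, and a copy or gene also needed a fold change over 2. Summed levels were compared by two-sided exact permutation tests on the log2 scale (scipy 1.17.1). Totals and ratios count reads once, so their precision is limited by the number of libraries. Nothing in the sources states that libraries of a group came from separate days, so p-values measure the spread between libraries, which may be technical. None of 300 pairs of libraries was identical.

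In data simulated for the LatA control against IVF, 85% of 200 repeat names changed by 2-fold were recovered, with 3 other calls. The simulation gave all repeat names a common dispersion (0.0404, and 0.343 for single copies) and no shift shared by a library. The real LatA control libraries differed in summed L1Md level (4014 and 8492). The recovered share therefore does not measure the power of the real comparison. All subfamilies are named. Single copies are named if among the 10 with the highest mean level, or if among up to 3 called copies in each direction with the largest fold change and at least 10 reads in every library of the higher group, in 6 comparisons. Gene positions come from GENCODE (mm10), promoter sequences from RefSeq (GRCm38.p6). The members, gene lists and tests were chosen with earlier results of these data known. Alternatives were another normalization, DESeq2 1.42.0, other filters, a replicate block, other sets of copies and leaving out each library.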

Additional observations from a re-analysis of the deposited data

Results flagged for a closer look

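The level of L1MdGf_II in the highest IVF library was 60.88, against 45.28, 46.65 and 47.61 in the other IVF libraries, and that of L1MdV_I in the lowest IVF library was 115.8, against 139.2, 139.6 and 142.5. Each lay far from the other 3 relative to the range of its group, and chance alone marks about 1 in 20 groups in this way.

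The edgeR interaction term of A366 and TSA was called in 7 subfamilies, where 8.67% of all repeat names passed in either direction and 8.22% as negative. The difference on the log2 scale was -1.62 for L1MdA_IV, -1.64 for L1MdA_V, -1.32 for L1MdA_VI, -1.33 for L1MdA_VII, -1.38 for L1MdF_I, -1.34 for L1MdFanc_I and -1.18 for L1MdGf_II. The median over all repeat names was -0.49. The number of subfamilies called was 21 without LatA control replicate 2 and 0 without replicate 1, and the part of these libraries in the difference was not tested. It was 2 with the repeat-based scaling and 0 when only the compared libraries were fitted.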

How the results depend on the processing

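Depth limits the single copies, most of which hold a few reads per library, and with 2 libraries in most groups the estimate of the spread rests on all 25 libraries. In control SCNT against IVF, no alternative called a subfamily lower and the L1Md median stayed positive, whereas the counts of decreases against the LatA control changed with which of its libraries was kept. The demethylase comparison of the ratio to older L1 turned positive without LatA control replicate 2, and the comparison of 2 agents with IVF turned negative for long copies. The cause was not tested in any of these. Counts that moved by over 1.5 times, and summed differences that crossed the threshold or changed sign, are given here.

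Of 14 called differences of single subfamilies given in the text, 7 passed with any 1 library left out, and of 17 of single copies 5 did. Over all alternatives, 150 of 168 repeats of the former and 82 of 111 of the latter kept direction and call. The L1MdTf_I difference between control SCNT and IVF, which did not pass, was -0.26 with TMM over repeat names and -0.11 without IVF replicate 4, and ranged from -1.54 to 0.88 with each library left out. The L1MdTf_I copy in Dlgap1, higher in the LatA control than in IVF, was at -3.97 without LatA control replicate 2. Without TMM factors, copies called higher and lower were 4 and 2 for *Kdm3a* vs control SCNT (8 and 2 with them), 1 and 5 for *Kdm4d* vs control SCNT (1 and 1), and 0 and 15 for TSA + RK-701 vs LatA control (1 and 7). With DESeq2 they were 30 and 18, 16 and 45, and 10 and 79 in these comparisons, and 13 and 42 for RK-701 vs LatA control (0 and 3). With DESeq2, subfamilies called numbered 11 for *Kdm4d* vs control SCNT, 2 for TSA + UNC0638 vs LatA control, 1 for TSA + RK-701 vs IVF, 3 for TSA + A366 vs IVF and 13 for TSA-by-A366 interaction, and copies called numbered 48 for *Kdm3a* vs control SCNT, 61 for *Kdm4d* vs control SCNT, 55 for RK-701 vs LatA control, 89 for TSA + RK-701 vs LatA control and 161 for TSA + A366 vs LatA control. With size factors of the DESeq2 kind, subfamilies called numbered 1 for TSA + A366 vs IVF. With the LatA control alone, the log2 difference in total level was 0.75 for untreated SCNT vs IVF (exact permutation test p = 0.133). With control SCNT alone, the log2 difference in total level was 0.87 for untreated SCNT vs IVF (exact permutation test p = 0.133). With X and Y copies, subfamilies called numbered 3 for RK-701 vs LatA control, 2 for *Kdm4d* vs IVF, 1 for TSA + RK-701 vs IVF, 1 for TSA + A366 vs IVF and 1 for TSA + UNC0638 vs IVF, and the log2 difference in the ratio to older L1 was 0.32 for untreated SCNT vs IVF (exact permutation test p = 0.0286) and 0.18 for 2 agents vs IVF (exact permutation test p = 0.0571). With copies of at least 1000 bases, the log2 difference in the ratio to older L1 was 0.32 for untreated SCNT vs IVF (exact permutation test p = 0.0286) and -0.0018 for 2 agents vs IVF (exact permutation test p = 0.971). With copies of at least 5000 bases, the log2 difference in total level was -0.61 for 2 agents vs 1 agent (exact permutation test p = 0.0268) and -0.095 for 2 agents vs IVF (exact permutation test p = 0.571). With copies outside gene spans, subfamilies called numbered 6 for LatA control vs IVF, 2 for RK-701 vs LatA control, 1 for TSA + UNC0638 vs LatA control, 0 for *Kdm4d* vs IVF, 4 for TSA vs IVF, 3 for TSA + RK-701 vs IVF and 3 for TSA + A366 vs IVF, and the log2 difference in total level was 0.71 for untreated SCNT vs IVF (exact permutation test p = 0.0857), and the log2 difference in the ratio to older L1 was 0.49 for untreated SCNT vs IVF (exact permutation test p = 0.0286). Without TMM factors, subfamilies called numbered 3 for *Kdm3a* vs control SCNT, 17 for *Kdm4d* vs control SCNT, 7 for TSA + UNC0638 vs LatA control, 6 for RK-701 vs IVF and 16 for TSA-by-A366 interaction, and copies called numbered 6 for *Kdm3a* vs control SCNT, 6 for *Kdm4d* vs control SCNT, 15 for TSA + RK-701 vs LatA control and 68 for TSA + A366 vs LatA control, and the log2 difference in total level was -0.73 for 2 agents vs 1 agent (exact permutation test p = 0.0105). With genes and repeats as library size and TMM over repeat names, subfamilies called numbered 11 for control SCNT vs IVF, 9 for LatA control vs IVF, 1 for *Kdm3a* vs control SCNT, 0 for *Kdm4d* vs control SCNT, 2 for RK-701 vs LatA control, 9 for TSA + RK-701 vs LatA control, 7 for TSA + A366 vs LatA control, 1 for TSA + UNC0638 vs LatA control, 6 for *Kdm3a* vs IVF, 2 for *Kdm4d* vs IVF, 9 for TSA vs IVF, 5 for RK-701 vs IVF, 2 for TSA + A366 vs IVF, 1 for TSA + UNC0638 vs IVF and 2 for TSA-by-A366 interaction. With copies of at least 1 read on average, copies called numbered 13 for *Kdm4d* vs control SCNT, 6 for RK-701 vs LatA control, 17 for TSA + RK-701 vs LatA control and 69 for TSA + A366 vs LatA control. With copies of at least 20 reads on average, copies called numbered 122 for control SCNT vs IVF, 111 for LatA control vs IVF, 13 for *Kdm4d* vs control SCNT, 14 for RK-701 vs LatA control and 21 for TSA + RK-701 vs LatA control. With no filter on low counts, subfamilies called numbered 3 for *Kdm3a* vs control SCNT, 14 for *Kdm4d* vs control SCNT, 2 for TSA vs LatA control, 16 for RK-701 vs LatA control, 5 for A366 vs LatA control, 21 for TSA + A366 vs LatA control, 6 for TSA + UNC0638 vs LatA control, 6 for *Kdm4d* vs IVF, 5 for RK-701 vs IVF, 5 for TSA + RK-701 vs IVF, 7 for TSA + A366 vs IVF, 5 for TSA + UNC0638 vs IVF, 1 for TSA-by-RK-701 interaction and 22 for TSA-by-A366 interaction. With only the compared libraries fitted, subfamilies called numbered 16 for *Kdm4d* vs control SCNT, 1 for RK-701 vs LatA control, 0 for TSA + RK-701 vs LatA control, 0 for TSA + A366 vs LatA control, 10 for *Kdm4d* vs IVF, 5 for RK-701 vs IVF, 7 for TSA + RK-701 vs IVF, 7 for TSA + A366 vs IVF, 10 for TSA + UNC0638 vs IVF and 0 for TSA-by-A366 interaction, and copies called numbered 0 for *Kdm3a* vs control SCNT, 0 for *Kdm4d* vs control SCNT, 0 for RK-701 vs LatA control, 0 for TSA + RK-701 vs LatA control and 0 for TSA + A366 vs LatA control. Without the 10 copies with most reads, the log2 difference in total level was -0.50 for 2 agents vs 1 agent (exact permutation test p = 0.0396). Without the top copy of each subfamily, subfamilies called numbered 1 for TSA + UNC0638 vs LatA control, 2 for *Kdm4d* vs IVF, 0 for RK-701 vs IVF, 1 for TSA + RK-701 vs IVF, 1 for TSA + A366 vs IVF and 16 for TSA-by-A366 interaction. With each library left out in turn, subfamilies called ranged from 0 to 20 for LatA control vs IVF, 0 to 1 for *Kdm4d* vs control SCNT, 0 to 1 for TSA vs LatA control, 0 to 18 for RK-701 vs LatA control, 0 to 3 for A366 vs LatA control, 0 to 19 for TSA + RK-701 vs LatA control, 3 to 20 for TSA + A366 vs LatA control, 0 to 7 for TSA + UNC0638 vs LatA control, 0 to 16 for *Kdm3a* vs IVF, 0 to 1 for *Kdm4d* vs IVF, 0 to 20 for TSA vs IVF, 0 to 1 for RK-701 vs IVF, 10 to 22 for A366 vs IVF, 0 to 1 for TSA + A366 vs IVF and 0 to 21 for TSA-by-A366 interaction. With each library left out in turn, copies called ranged from 74 to 177 for control SCNT vs IVF, 51 to 213 for LatA control vs IVF, 1 to 6 for *Kdm3a* vs control SCNT, 0 to 1 for *Kdm4d* vs control SCNT, 0 to 59 for RK-701 vs LatA control, 0 to 18 for TSA + RK-701 vs LatA control and 1 to 47 for TSA + A366 vs LatA control. With each library left out in turn, the log2 difference in total level ranged from 0.65 to 1.01 for untreated SCNT vs IVF and -0.62 to -0.36 for 2 agents vs 1 agent. With each library left out in turn, the log2 difference in the ratio ranged from -0.20 to 0.013 for demethylase mRNA vs untreated SCNT and 0.14 to 0.22 for 2 agents vs IVF.

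Replicate numbers are shared between groups. Deviations from the group means of same-numbered libraries had correlations over repeat names of -0.30 to 0.16, and 6 of 110 pairs were over 0.1. A correlation leaves out any shift shared by all names of a library. In groups of 2 libraries the deviations mirror each other, so many pairs repeat the same values. Whether the numbers pair the samples was therefore not settled. With the replicate number as a block, subfamilies called numbered 2 for RK-701 vs LatA control, 0 for *Kdm4d* vs IVF and 3 for TSA-by-A366 interaction, and copies called numbered 92 for control SCNT vs IVF, 81 for LatA control vs IVF, 6 for *Kdm3a* vs control SCNT, 0 for *Kdm4d* vs control SCNT, 0 for RK-701 vs LatA control, 1 for TSA + RK-701 vs LatA control and 26 for TSA + A366 vs LatA control.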
